A study of Caenorhabditis elegans with 20 samples.

Results

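The aspartyl lysosomal proteases described here were 10 genes of Caenorhabditis elegans, asp-1, asp-2, asp-3, asp-4, asp-5, asp-6, asp-8, asp-12, asp-13 and asp-14. They were chosen by symbol from the 46778 genes of the deposited tables, and all 10 were found and tested. Total RNA was sequenced from day 1 adult animals, synchronised by egg lay and given no further treatment, in 20 libraries of 5 strains with 4 libraries each. The strains were AWK33, pgrn-1(-); granulin 1(+), AWK43, pgrn-1(-); granulin 2(+), AWK107, pgrn-1(-); granulin 3(+), CF3050, pgrn-1(-), and the wild type N2. They are called granulin 1, granulin 2, granulin 3, null and wild type below. The first 4 strains share the loss of pgrn-1, so the null is the background of the 3 granulin strains. Each granulin is represented by a single strain, and the sources used here do not give the pgrn-1 allele or the promoter and insertion of any transgene. Separate cultures for the 4 libraries are not stated in the labels, so each p-value measures only how these samples spread, which may be technical.

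Aspartyl proteases of the cathepsin D type are made as inactive precursors that mature at the acid pH of lysosomes, where they cut proteins taken up by endocytosis or delivered by autophagy. Progranulin, the product of pgrn-1, is a secreted protein that reaches lysosomes and is cut there into granulins, and mammalian cathepsin D is a known partner of progranulin. In C. elegans, asp-3 and asp-4 are the cathepsin D-like genes needed for necrotic death of neurons, asp-1 is known as a gene of the intestine, and the other members are predicted aspartic proteases with roles that are less well described.

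The members lie on chromosomes V and X (build ce11, annotation of Ensembl release 115). The gene asp-6 occupies chrV:8267511-8268937 on the minus strand, asp-12 chrV:8269210-8272056 on the plus strand and asp-5 chrV:8272385-8274044 on the plus strand, so these 3 genes are direct neighbours with gaps of 272 and 328 bases. The others on V are asp-1 at chrV:19049562-19050752 (minus), asp-2 at chrV:9203077-9204734 (plus), asp-8 at chrV:3024549-3027931 (plus) and asp-13 at chrV:8641602-8643193 (minus). The X-linked members are asp-3 at chrX:6791064-6792709 (plus), asp-4 at chrX:13218985-13221462 (minus) and asp-14 at chrX:6444185-6446664 (minus). All are protein-coding, and the coordinates span the whole gene, which is a single exon in asp-1 and 3 to 7 exon blocks with introns in the others. Exon lengths ran between 1191 bases in asp-1 and asp-13 and 1462 bases in asp-3. The end of asp-2 overlapped inx-10 on the other strand by 74 bases, and asp-4 overlapped R12H7.4 on the other strand by 33 bases. The sources used here do not say whether counting used strand, so reads of these stretches could belong to either gene. Reads shared between similar members were not examined.

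Values are depth-scaled counts (CPM) after scaling by trimmed means of M values. Differences are on the log2 CPM scale with a prior count of 2, first strain minus second, and were tested with limma across 15737 genes. A gene is said to have passed where its Benjamini-Hochberg adjusted p was under 0.05. The targeted gene followed its labels: pgrn-1 averaged 443 ± 395 CPM in granulin 1, 200.5 ± 60.3 CPM in granulin 2, 348 ± 68.3 CPM in granulin 3, 0.206 ± 0.11 CPM in the null and 18.8 ± 12.2 CPM in wild type (SD, n = 4 each). Libraries held 48279370 to 128776517 reads, and ribosomal RNA took 0.45% to 52.7% of them, with over 20% in wild type replicate 4, granulin 1 replicate 3 and granulin 2 replicates 3 and 4. Wild type replicate 4 had the lowest scaling factor, 0.428, with the next at 0.626 in granulin 2 replicate 4 and the highest at 1.68. Results that rest on wild type replicate 4 are therefore also given without it. Sample names carry the letters A to D in granulin 1, granulin 3 and wild type and E to H in granulin 2 and the null, with no meaning given. If the letters mark a batch, every comparison that crosses the A to D and E to H sets cannot be told apart from it. These are the null and granulin 2 against wild type, and granulin 1 and granulin 3 against the null. Granulin 2 against granulin 1 and granulin 3 against granulin 2 cross the sets too.

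Per kilobase of exon, the members differed widely in level. Over the 20 libraries, asp-1 averaged 1606 CPM per kb and asp-6 1201 CPM per kb. The next were asp-3 with 489, asp-5 with 415, asp-2 with 277, asp-4 with 176 and asp-13 with 152 CPM per kb. The lowest were asp-14 with 74.1, asp-12 with 35.5 and asp-8 with 2.08 CPM per kb. Ranked by the median level per kb in wild type among 19725 protein-coding genes, asp-1 was number 64, asp-6 number 80, asp-3 number 226 and asp-5 number 247, and asp-8 was number 8886. The lowest member, asp-8, still had 42 to 688 reads in every library. Together the 10 members summed to 1485 CPM in granulin 3 replicate 3, the lowest library, and 19890 CPM in wild type replicate 4, the highest. The scaling factors of these libraries were 1.65 and 0.428, so the sums are not shares of a library's reads. In all libraries but granulin 3 replicate 3 and granulin 2 replicate 2, asp-1 and asp-6 held at least 50.4% of that sum.

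**Figure D1:**
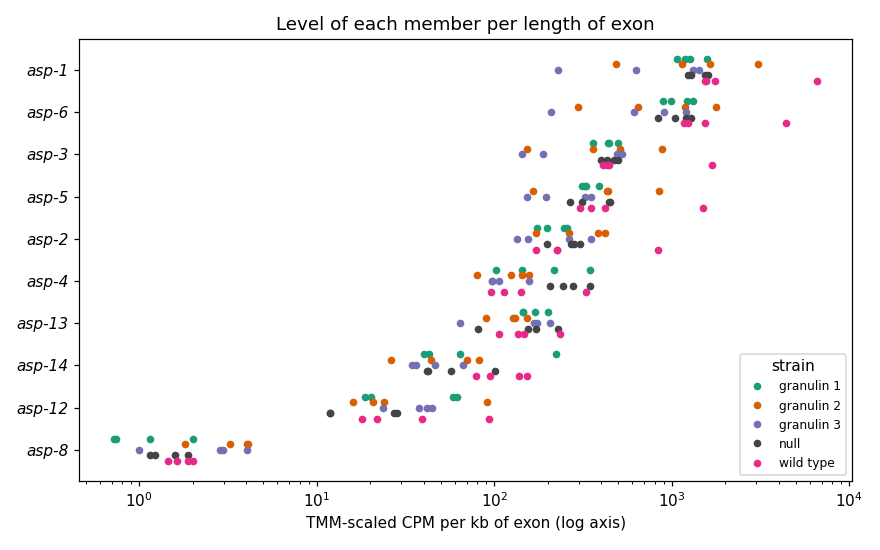
Level of each member per kilobase of exon (x axis, TMM-scaled CPM per kb, log axis) in each of the 20 libraries, 1 point per library, coloured by strain, with members ordered by their mean. The means run between 2.08 CPM per kb for asp-8 and 1606 CPM per kb for asp-1, and in asp-1, asp-2, asp-3, asp-5 and asp-6 1 wild type library stands to the right of all others.

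The null against wild type, which asks what goes with the loss of progranulin, gave no call among the members. In that comparison 0 of 10 passed, where 0.197% of all tested genes passed. Their log2 differences lay between -0.99 in asp-14 and 0.81 in asp-4, with adjusted p of 0.506 to 1.00 by limma. At an unadjusted p under 0.05 there were 0 members, beside 1622 of all tested genes. Of the members, 9 had values below 0 and the median was -0.47, beside a median of -0.00 over all tested genes. Without wild type replicate 4 that median was -0.10, with 5 of 10 below 0 and a median of -0.03 over all tested genes, and asp-1 had a log2 difference of -0.20, asp-6 -0.28, asp-3 0.07, asp-5 0.00 and asp-2 0.34. The limma estimate for asp-4 without that library was 1.19 (adjusted p = 0.266).

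Adding a granulin to the null left the members short of the threshold as well. In granulin 1 against the null 0 of 10 members passed, beside 0.47% of all tested genes. In granulin 2 against the null the count was 0 of 10, beside 21.6% of all tested genes, and in granulin 3 against the null 0 of 10, beside 12.7%. At an unadjusted p under 0.05 there were 0, 2 and 1 members, beside 1176, 4926 and 3820 of all tested genes in the same 3 comparisons. The member medians of log2 difference were -0.07 in granulin 1, -0.14 in granulin 2 and -0.46 in granulin 3, beside 0.04, 0.04 and 0.07 over all tested genes. The 3 comparisons share the null libraries, so their values are not independent of each other.

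Against wild type, 0 of 10 members passed in granulin 1 (0.324% of all tested genes), 0 in granulin 2 (18.3%) and 0 in granulin 3 (11.2%). In granulin 3 against wild type 4 members had an unadjusted p under 0.05, beside 3139 of all tested genes, and the counts were 0 in granulin 1, beside 1413, and 2 in granulin 2, beside 4378. The member median was -0.77 in granulin 3 against wild type, beside 0.03 over all tested genes, and these comparisons share the wild type libraries. Without wild type replicate 4 it was -0.37 in granulin 3, and the medians in granulin 1 and granulin 2 were -0.17 and -0.08, against -0.54 and -0.32 with it. Between granulin strains, 1 of 10 members passed in granulin 2 against granulin 1, beside 18.9% of all tested genes, and that member was asp-8. In granulin 3 against granulin 1 0 passed (5.58%), and in granulin 3 against granulin 2 0 passed (5.39%). In a test for any difference among the 5 strains 1 member passed, again asp-8 (limma, adjusted p = 0.0437), beside 21.5% of all tested genes. This last call was lost in 16 of 20 fits that left out 1 library, and stayed without granulin 1 replicate 1, granulin 2 replicate 1, granulin 3 replicate 3 or wild type replicate 4.

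**Figure D2:**
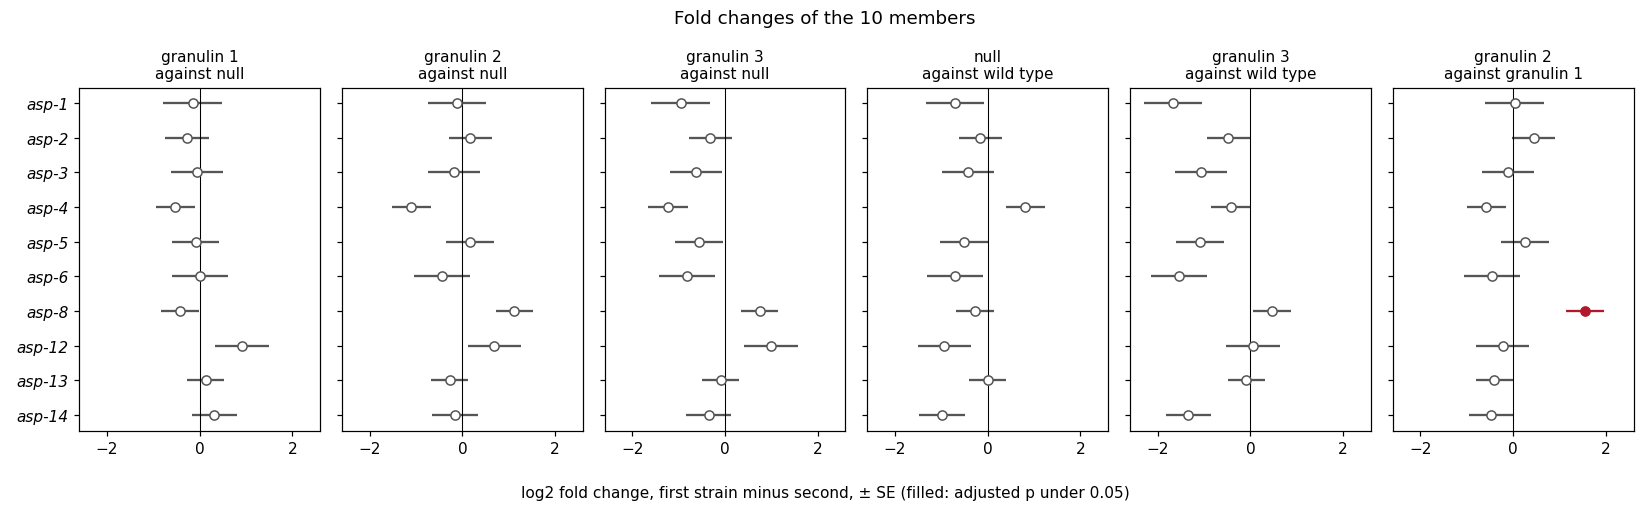
Log2 fold change of the 10 members (x axis, first strain minus second, points with ± SE, n = 4 libraries per strain) in 6 of the 10 comparisons between strains. The single filled point is asp-8 in granulin 2 against granulin 1 at 1.55, a comparison that crosses the sets of sample-name letters. All open points missed an adjusted p of 0.05 by limma.

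The most abundant member, asp-1, an intestinal protease gene, had 1422, 1506, 1876 and 1268 CPM in granulin 1 and 1963, 580, 1353 and 3629 CPM in granulin 2. It had 1698, 748, 274 and 1566 CPM in granulin 3, 1535, 1896, 1464 and 1838 CPM in the null and 1853, 2093, 1842 and 7843 CPM in wild type. Granulin 1 and the null were even, while granulin 2 and granulin 3 each held libraries well below and granulin 2 and wild type each held 1 well above the others. Every granulin 3 library was below every wild type library, and this was 1 of 2 members whose groups did not overlap in granulin 3 against wild type, beside 15.1% of all tested genes. The log2 difference was -1.67 ± 0.63 (SE; limma, adjusted p = 0.112), and -1.16 without wild type replicate 4 (adjusted p = 0.311). The strain means were in the order wild type, null, granulin 2, granulin 1, granulin 3 on the log2 scale, and no neighbours in this order differed beyond their spread (adjusted p of 0.686 to 0.983 by limma).

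The predicted protease gene asp-6 had a similar profile over libraries. It reached 1257, 1554, 1679 and 1146 CPM in granulin 1 and 1520, 377, 828 and 2262 CPM in granulin 2. Its levels were 1538, 778, 266 and 1157 CPM in granulin 3, 1339, 1647, 1066 and 1541 CPM in the null and 1499, 1975, 1576 and 5613 CPM in wild type. As in asp-1, granulin 3 replicate 3 and granulin 2 replicate 2 were low and wild type replicate 4 was high. The ranges of granulin 3 and wild type overlapped, and the log2 difference of granulin 3 against wild type was -1.54 ± 0.60 (limma, adjusted p = 0.130), or -1.10 without wild type replicate 4.

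For asp-3, one of the cathepsin D-like genes of neuronal necrosis, the values were 640, 524, 731 and 652 CPM in granulin 1 and 751, 224, 528 and 1283 CPM in granulin 2. Granulin 3 had 717, 276, 209 and 771 CPM, the null 630, 692, 581 and 730 CPM and wild type 651, 631, 597 and 2470 CPM. The null and 3 of the 4 wild type libraries lay in the same narrow band, and granulin 1 beside it. The null against wild type gave a log2 difference of -0.43 ± 0.56 (limma, adjusted p = 0.900), which became 0.07 without wild type replicate 4.

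The neighbour of asp-12, asp-5, had 386, 402, 480 and 406 CPM in granulin 1 and 535, 204, 540 and 1052 CPM in granulin 2. Granulin 3 had 434, 241, 190 and 402 CPM, the null 330, 554, 387 and 548 CPM and wild type 379, 523, 437 and 1851 CPM. The groups overlapped in all comparisons. The levels of asp-2 were 274, 239, 340 and 355 CPM in granulin 1, 364, 238, 580 and 533 CPM in granulin 2 and 365, 214, 185 and 486 CPM in granulin 3. They were 376, 391, 273 and 420 CPM in the null and 310, 313, 237 and 1155 CPM in wild type, with wild type replicate 4 again above all others.

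**Figure D3:**
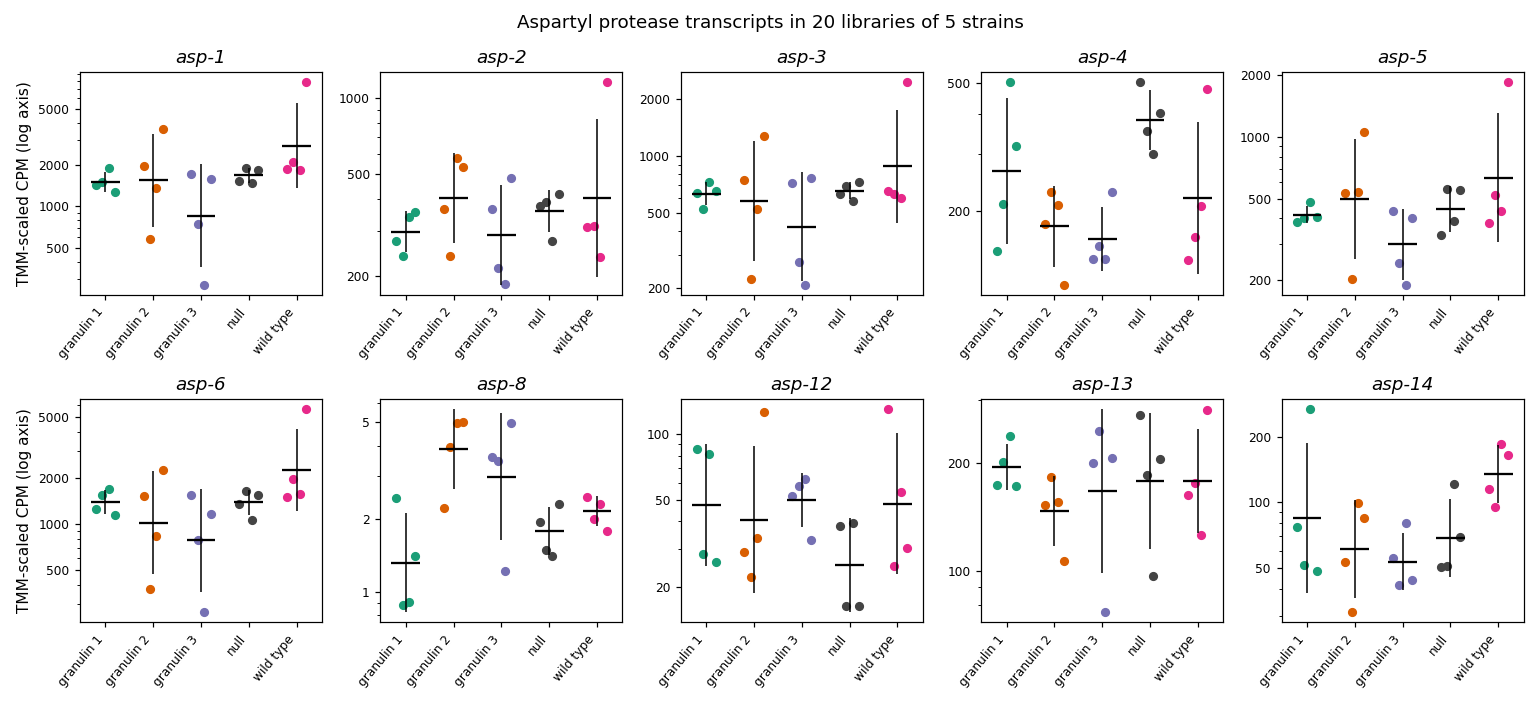
Levels of the 10 members (y axis, TMM-scaled CPM, log axis with its own range in each panel) in the 5 strains, 1 point per library, with the mean of log2 CPM (horizontal line) ± SD (vertical line, n = 4). The null libraries of asp-4 lie at 299.7 to 504 CPM, above all granulin 2 and granulin 3 libraries, and the wild type libraries of asp-1 hold 1 point at 7843 CPM.

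These 5 genes, asp-1, asp-2, asp-3, asp-5 and asp-6, moved together over libraries, as a description with the group picked after the values were seen. Pearson's r of log2 CPM over the 20 libraries was 0.68 to 0.97 for their 10 pairs (median 0.90), and Spearman's rho was 0.43 to 0.91. With each strain's mean taken out, r was 0.76 to 0.98, and without wild type replicate 4 it was 0.50 to 0.96. For the other 35 pairs of members r ran between -0.49 and 0.51, with a median of 0.21. Such values share library, depth and scaling and carry no test. Averaged over the 5 genes, log2 CPM stood 2.05 above the mean of all libraries in wild type replicate 4 and 0.99 above it in granulin 2 replicate 4. It was -1.69 in granulin 3 replicate 3, -1.26 in granulin 2 replicate 2 and -0.90 in granulin 3 replicate 2, while all null libraries lay between -0.20 and 0.27. The shared movement thus ran mostly within strains. Scaling factors were lowest in the high libraries, 0.428 for wild type replicate 4 and 0.626 for granulin 2 replicate 4. They were highest in the low ones, 1.65 for granulin 3 replicates 2 and 3 and 1.68 for granulin 2 replicate 2. Factors of 0.650 (granulin 2 replicate 3) and 1.49 (null replicate 1) went with -0.01 and -0.05 over the 5 genes. The length slope is the slope of a library's log2 deviations from gene means on log2 exon length. It was -0.35 and -0.25 in granulin 3 replicates 2 and 3 and -0.39 in granulin 2 replicate 2. The 5 lowest slopes also included granulin 1 replicate 3 (-0.82) and null replicate 1 (-0.27), with 0.20 and -0.05 over the 5 genes. The part of scaling or of the length slope in this movement was not tested.

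**Figure D4:**
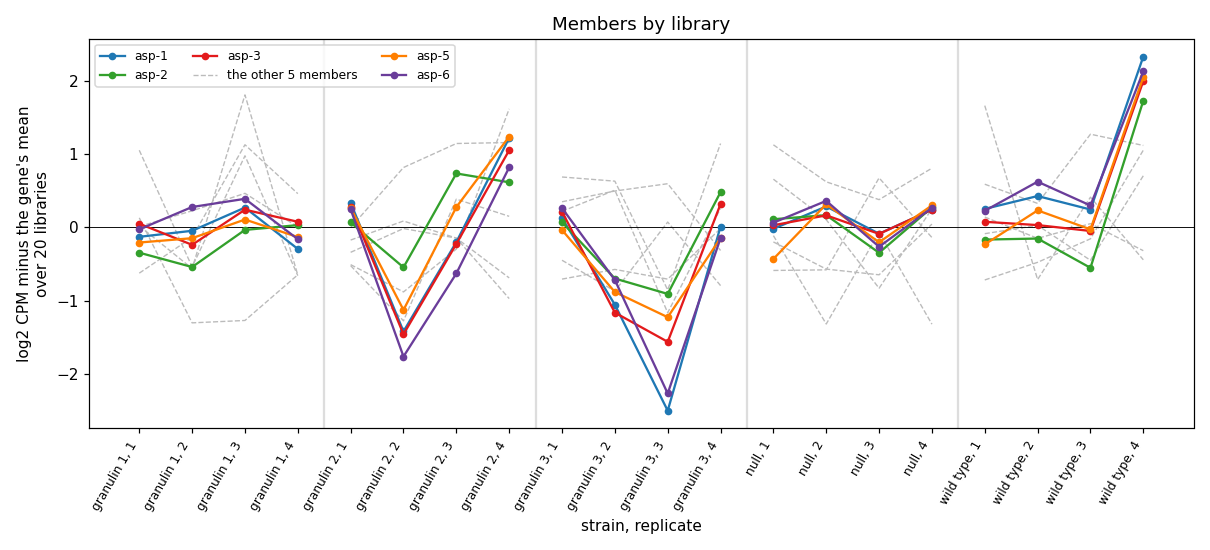
Deviation of each member from its own mean over the 20 libraries (y axis, log2 CPM) by strain and replicate (x axis), with asp-1, asp-2, asp-3, asp-5 and asp-6 in colour and the other 5 members as grey dashed lines. The 5 coloured lines run together, averaging 2.05 in wild type replicate 4 and -1.69 in granulin 3 replicate 3.

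The gene asp-12 lies between asp-6 and asp-5, and its r was -0.00 with asp-6 and -0.04 with asp-5, while asp-6 and asp-5 had an r of 0.88. The closest pair was asp-1 and asp-6 with 0.97, which lie far apart on chromosome V, and asp-1 and asp-3, on V and X, had 0.96.

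**Figure D5:**
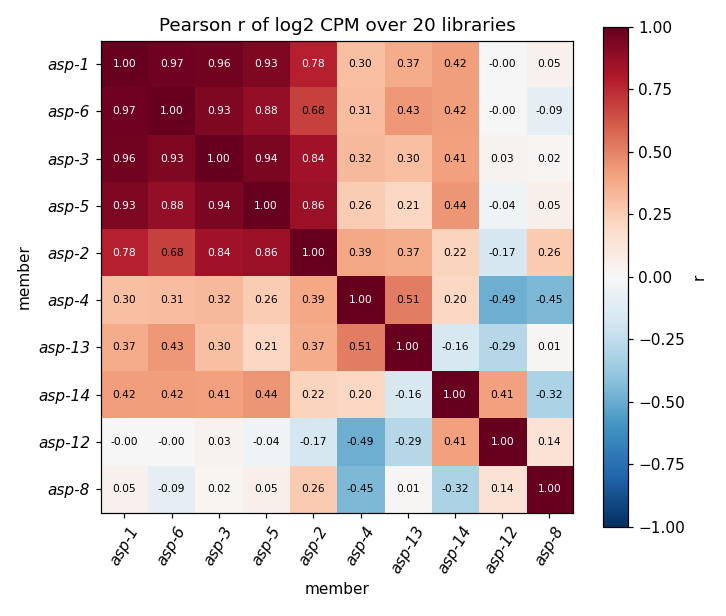
Pearson's r of log2 CPM over the 20 libraries for each pair of members (both axes list the members, colour and number give r). The upper left block of asp-1, asp-6, asp-3, asp-5 and asp-2 holds values of 0.68 to 0.97, and asp-12 against asp-4 has the lowest value at -0.49.

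Other genes followed the same libraries. In wild type replicate 4 all the genes named next stood above their mean over libraries. There lec-1 had 665 CPM (mean 231 CPM), T21H3.1 1495 CPM (373 CPM), clec-63 1510 CPM (393 CPM) and eri-12 85.0 CPM (37.7 CPM). Their r without that library was not computed, and the values carry no test. Among 14861 protein-coding genes tested, those with the highest r to asp-1 were lec-1, a galectin gene (0.98), T21H3.1 (0.97) and eri-12 (0.96). For asp-6 they were T21H3.1 (0.96), lec-1 (0.96) and C18B2.4 (0.95), for asp-3 lec-1 (0.97), eri-12 (0.95) and the phospholipase C gene plc-2 (0.94), and for asp-5 eri-12 (0.94), the C-type lectin gene clec-63 (0.93) and lec-1 (0.93), each over 20 libraries.

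Levels of tissue markers differed over the same libraries. The 9 intestine markers summed to 2119 CPM in wild type replicate 4, against 729 to 797 CPM in the other wild type libraries, and to 414 CPM in granulin 2 replicate 2 and 493 CPM in granulin 3 replicate 3, the lowest of all. They reached 1312 CPM in granulin 3 replicate 4, in which the 5 genes stood only 0.10 above their mean. In wild type replicate 4 the 5 body wall muscle markers also summed to 7714 CPM, against 926 to 1399 CPM in the other wild type libraries, while the 10 oocyte markers summed to 2965 CPM, against 10988 to 18407 CPM. Oocyte markers were low as well in granulin 2 replicate 2 (2095 CPM), granulin 3 replicate 2 (1715 CPM) and granulin 3 replicate 3 (3569 CPM), where the 5 genes were low, and in granulin 1 replicate 3 (296 CPM), where they stood 0.20 above their mean. The sums were also low in granulin 2 replicate 3 (3400 CPM) and null replicate 1 (3831 CPM), where the 5 genes stood at -0.01 and -0.05. No intestine, body wall muscle or oocyte marker was at 0 in any library. The part of tissue make-up in these levels was not tested, and in whole animals fewer cells of a type and less RNA per cell cannot be told apart.

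The other cathepsin D-like gene of neuronal necrosis, asp-4, did not follow the 5 genes (r of 0.26 to 0.39 with them). It had its highest mean in the null. Granulin 1 had 149, 210, 504 and 317 CPM, granulin 2 182, 228, 208 and 117 CPM and granulin 3 141, 155, 141 and 228 CPM. The null had 504, 355, 299.7 and 404 CPM and wild type 140, 166, 207 and 479 CPM. All granulin 2 and all granulin 3 libraries were below all null libraries, and 3 of 4 wild type libraries were too. It was the 1 member whose groups did not overlap in granulin 2 against the null, beside 30.3% of all tested genes, and the 1 member in granulin 3 against the null, beside 22.2%.

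Means of asp-4 were 184 ± 48.2 CPM in granulin 2 and 391 ± 86.7 CPM in the null, a log2 difference of -1.10 ± 0.43 that missed the threshold (limma, adjusted p = 0.0717). In granulin 3 the mean was 166 ± 41.6 CPM, a log2 difference from the null of -1.24 ± 0.43 (limma, adjusted p = 0.0623). Over alternatives the first lay between -1.34 and -0.90 and passed in 4 of 20, and the second lay between -1.42 and -0.86 and passed in 5 of 19. Granulin 1 overlapped the null, with 295 ± 156 CPM and a log2 difference of -0.53 ± 0.43 (limma, adjusted p = 0.840). Null against wild type gave 391 ± 86.7 CPM and 248 ± 156 CPM, a log2 difference of 0.81 ± 0.43 (limma, adjusted p = 0.538). In the order null, granulin 1, wild type, granulin 2, granulin 3, no neighbours differed beyond their spread. The high libraries of granulin 1 (replicate 3) and wild type (replicate 4) are 2 of the 4 with over 20% ribosomal RNA reads. Without those 4 libraries asp-4 passed in granulin 3 against the null (-1.28; limma, adjusted p = 0.00687), beside 18.4% of all tested genes (12.7% in the main fit). None of the 4 is a granulin 3 or null library, so this comparison rests on the same libraries as before. The spread shared by all strains was estimated without the high asp-4 values of granulin 1 replicate 3 and wild type replicate 4. In granulin 2 against the null asp-4 did not pass in that fit, which leaves out granulin 2 replicates 3 and 4.

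The least abundant member, asp-8, was the only member to pass in any comparison. It had 2.44, 0.884, 0.904 and 1.41 CPM in granulin 1 and 2.22, 3.95, 4.96 and 5.01 CPM in granulin 2. Granulin 3 had 3.60, 3.46, 1.22 and 4.96 CPM, the null 1.93, 1.49, 1.41 and 2.30 CPM and wild type 2.46, 2.00, 2.31 and 1.78 CPM. In granulin 2 and in granulin 3, 3 of the 4 libraries lay above all libraries of the null, wild type and granulin 1, and the remaining library of each overlapped them. These values rest on few reads. Granulin 2 libraries held 98 to 584, granulin 3 libraries 113 to 688 and granulin 1 libraries 50 to 141 reads of asp-8.

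In granulin 2 asp-8 averaged 4.03 ± 1.30 CPM, against 1.41 ± 0.728 CPM in granulin 1 (SD, n = 4 each), a log2 difference of 1.55 ± 0.41 (SE; limma, adjusted p = 0.00884). The ranges of these strains overlapped by 1 library on each side. The comparison crosses the letter sets A to D and E to H, so it cannot be told apart from a batch if the letters mark one. The call was kept in 16 of 19 alternatives, with log2 differences of 1.03 to 1.86, and was lost on the deposited scale (adjusted p = 0.0981), with the pair of strains fitted alone (0.0696) and without the libraries with over 20% ribosomal RNA reads (0.227), all by limma. Granulin 2 against the null, both within the letters E to H, had a log2 difference of 1.12 ± 0.41 (limma, adjusted p = 0.0535). It passed in 5 of 20 alternatives. Granulin 2 against wild type had 0.85 ± 0.41 (limma, adjusted p = 0.177). Granulin 3 averaged 3.31 ± 1.55 CPM, a log2 difference of 1.18 ± 0.41 from granulin 1 (limma, adjusted p = 0.106) and 0.75 ± 0.41 from the null (limma, adjusted p = 0.276). In the order granulin 2, granulin 3, wild type, null, granulin 1, no neighbours differed beyond their spread.

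Sperm markers also differed between these strains. Of 8 tested sperm markers, 8 passed as higher in granulin 2 against granulin 1 (14.8% of all tested genes), 8 in granulin 2 against the null (17.5%) and 5 in granulin 3 against the null (11.2%). In granulin 3 against granulin 1, 1 of the 8 passed as higher (5.32%). Among them, spe-11, a gene for a sperm-supplied protein needed by the embryo, averaged 11.7 ± 6.86 CPM in granulin 2 and 1.26 ± 0.84 CPM in granulin 1 (log2 difference 3.16 ± 0.60; limma, adjusted p = 0.00062). The sperm gene spe-19 averaged 1.18 ± 0.311 CPM in granulin 2 and 0.0383 ± 0.0436 CPM in granulin 1 (log2 difference 4.33 ± 0.49; limma, adjusted p = 6.6e-06). The sperm list summed to 30.4 to 47.9 CPM in granulin 2 and 9.70 to 33.2 CPM in granulin 3. Its sums were 2.41 to 7.75 CPM in granulin 1, 1.17 to 3.47 CPM in the null and 0.668 to 2.29 CPM in wild type. In no library were more than 4 of the list's 10 found genes at 0. The gene peel-1 was at 0 in all 4 wild type libraries and spe-29 in 13 of all libraries, while spe-9, spe-11, gsp-3 and gsp-4 had reads in every library. Early embryo markers, of which 3 were tested, passed as higher in granulin 2 against granulin 1 in 2 cases, with summed levels of 1.72 to 4.19 CPM in granulin 2 and 0.561 to 1.04 CPM in granulin 1. Hypodermis markers, genes of the skin and cuticle, passed as higher in 5 of 8 cases in granulin 2 against the null, 2 in granulin 3 against the null, 2 in granulin 2 against granulin 1 and 0 in granulin 3 against granulin 1. In granulin 2 against granulin 1 these were the cuticle collagen genes bli-1 (log2 difference 3.95; limma, adjusted p = 4.27e-05) and bli-2 (3.37; limma, adjusted p = 0.000411). The summed level of that list was 429 to 2383 CPM in granulin 1, 458 to 1537 CPM in granulin 2, 408 to 1275 CPM in granulin 3, 500.3 to 901 CPM in the null and 767 to 2306 CPM in wild type, with overlap between all strains. Of 5 body wall muscle markers, 1 passed as higher in granulin 2 against granulin 1, the myosin gene myo-3 (2.96; limma, adjusted p = 0.028). The part of these lists in the asp-8 levels was not tested.

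Highest in wild type was asp-14, a predicted aspartic protease gene on X. It had 77.2, 51.6, 267 and 48.5 CPM in granulin 1, 53.0, 31.4, 99.5 and 84.6 CPM in granulin 2 and 55.8, 41.6, 80.1 and 43.9 CPM in granulin 3. The null had 50.6, 50.9, 122 and 69.2 CPM and wild type 115, 95.6, 184 and 166 CPM. All granulin 3 libraries were below all wild type libraries, which made it the other member without overlap in that comparison. Granulin 1, granulin 2 and the null each reached or passed the wild type range with replicate 3 alone. Granulin 3 averaged 55.4 ± 17.6 CPM and wild type 140 ± 41.7 CPM, a log2 difference of -1.34 ± 0.49 (limma, adjusted p = 0.0946) that passed in 5 of 20 alternatives. The log2 difference was -1.14 ± 0.49 in granulin 2 against wild type (limma, adjusted p = 0.123) and -0.99 ± 0.49 in the null against wild type (limma, adjusted p = 0.506). The first passed with the length slope as a covariate (-1.30, adjusted p = 0.0282 by limma). It also passed without the libraries with over 20% ribosomal RNA reads (-1.60; limma, adjusted p = 0.0144). That fit leaves out wild type replicate 4 and granulin 2 replicates 3 and 4, which hold the highest granulin 2 values of asp-14 (99.5 and 84.6 CPM). The null against wild type passed only with weights per library, a fit stopped before convergence (-0.89; limma, adjusted p = 0.0412). Unlike the 5 genes above, asp-14 did not rest on wild type replicate 4, and granulin 3 against wild type was -1.24 without that library (adjusted p = 0.188).

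The remaining members varied within strains. The gene asp-12 had 85.4, 28.3, 81.0 and 26 CPM in granulin 1, 28.9, 22.3, 33.5 and 126 CPM in granulin 2 and 52.4, 58.0, 62.2 and 33 CPM in granulin 3. The null had 38, 16.4, 39.2 and 16.4 CPM and wild type 130, 25.1, 54.7 and 30.2 CPM. The null had the lowest mean, 27.5 ± 12.8 CPM, and its log2 difference from wild type was -0.94 ± 0.58 (limma, adjusted p = 0.631). In each of the other strains at least 1 library lay within the null range of 16.4 to 39.2 CPM. The gene asp-13 had strain means of 197 ± 30.6 CPM in granulin 1, 150 ± 31.6 CPM in granulin 2, 182 ± 73.0 CPM in granulin 3, 190 ± 72.3 CPM in the null and 186 ± 66.5 CPM in wild type. Its lowest adjusted p over the comparisons was 0.568 (limma, granulin 2 against granulin 1).

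Ranked by mean log2 CPM, wild type was highest and granulin 3 lowest for asp-1, asp-3, asp-5, asp-6 and asp-14. Without wild type replicate 4, the null against wild type was 0.07 for asp-3 and 0.00 for asp-5. It was -0.20 for asp-1, -0.28 for asp-6 and -0.89 for asp-14. In asp-1, asp-3, asp-5 and asp-6 the low granulin 3 libraries were replicates 2 and 3. Both are among the 5 libraries of lowest length slope (-0.35 and -0.25), and the part of this in the order was not tested. For asp-2 the order was granulin 2, wild type, null, granulin 1, granulin 3, for asp-12 granulin 3, wild type, granulin 1, granulin 2, null, and for asp-13 granulin 1, wild type, null, granulin 3, granulin 2. No neighbours in any member's order differed beyond their spread, with adjusted p of 0.474 to 1.00 by limma.

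Further genes of the family were looked up by name. Of 10 further asp symbols and names looked up, 8 had rows and 2 were tested, hrg-7, the former asp-10, which signals heme status between intestine and neurons, and asp-17. Neither passed in any comparison. The level of hrg-7 was 39.3 ± 23.0 CPM in granulin 1, 27.4 ± 2.27 CPM in granulin 2, 32.5 ± 9.14 CPM in granulin 3, 31.1 ± 3.69 CPM in the null and 21.7 ± 3.72 CPM in wild type. Over all 20 libraries, asp-9 had 51 reads, asp-7, which lies 353 bases beyond asp-8, 19 reads, asp-15 12 reads and asp-16 4 reads, and asp-18 and asp-19 had 0 reads.

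The cysteine cathepsins, the other main class of lysosomal proteases, gave calls of 3 genes. Of 11 tested, 0 passed in the null against wild type or in granulin 1 and granulin 2 against the null. In granulin 3 against the null, 1 passed as higher, beside 11.2% of all tested genes, the cathepsin B-like cpr-8 (8.89 ± 1.67 CPM in granulin 3, 5.17 ± 0.894 CPM in the null; log2 difference 0.78 ± 0.25; limma, adjusted p = 0.0444). In granulin 2 against wild type, where 2.8% of all tested genes passed as lower, 2 of the 11 did, the cathepsin B-like cpr-6 (418 ± 138 CPM in granulin 2, 1108 ± 539 CPM in wild type; -1.36 ± 0.40; limma, adjusted p = 0.02) and cpr-9 (498 ± 131 CPM in granulin 2, 1487 ± 882 CPM in wild type; -1.46 ± 0.44; limma, adjusted p = 0.0214). Without wild type replicate 4 neither passed, with -1.06 for cpr-6 (limma, adjusted p = 0.0611) and -1.11 for cpr-9 (limma, adjusted p = 0.0681). Both were also lost without granulin 2 replicate 2 or replicate 3, with adjusted p of 0.0633 and 0.0848 for cpr-6 and 0.0705 and 0.0688 for cpr-9 by limma. In granulin 2 against granulin 1, where 4.12% passed as lower, cpr-8 was lower, with 4.53 ± 0.297 CPM in granulin 2 and 8.55 ± 2.69 CPM in granulin 1 (-0.86 ± 0.25; limma, adjusted p = 0.018), and it was higher in granulin 3 than in granulin 2 (0.95 ± 0.25; limma, adjusted p = 0.0282), where 1.72% passed as higher. Leaving out 1 library at a time, the calls of cpr-8 were lost in 8 of 8 fits in granulin 3 against the null, in 7 of 8 in granulin 3 against granulin 2 (kept without granulin 3 replicate 4) and in 1 of 8 in granulin 2 against granulin 1 (without granulin 2 replicate 1). The summed level of the list was 14139 CPM in wild type replicate 4, against 4181 to 5214 CPM in the other wild type libraries.

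Of 8 tested genes that act with asp-3 and asp-4 in neuronal necrosis, 1 passed. It was tra-3, a calpain gene, with 61.7 ± 10.2 CPM in granulin 2 and 32.3 ± 8.15 CPM in the null (0.95 ± 0.31; limma, adjusted p = 0.0292), where 17.5% of all tested genes passed as higher. It was also higher in granulin 2 than in wild type (1.00 ± 0.31; limma, adjusted p = 0.0244), where 15.5% did. The first call was lost in 5 of 8 fits without 1 library (null replicates 1, 2 and 4 and granulin 2 replicates 1 and 3; adjusted p up to 0.134 by limma). The second was lost in 3 of 8 (wild type replicates 2 and 4 and granulin 2 replicate 1; up to 0.0827). The other calpain gene of the list, clp-1, the calreticulin gene crt-1 and the vacuolar ATPase genes vha-12 and unc-32 passed in no comparison. Of 8 tested regulators of lysosomal or intestinal genes, 1 passed. This was pqm-1, a zinc finger factor gene, with 22.8 ± 4.86 CPM in granulin 3 and 9.29 ± 1.30 CPM in the null (1.28 ± 0.26; limma, adjusted p = 0.00237), beside 11.2% of all tested genes. It was higher also in granulin 3 than in granulin 2 (1.13 ± 0.26; limma, adjusted p = 0.0112), beside 1.72%, a call lost without granulin 3 replicate 3 (limma, adjusted p = 0.0539). The gene hlh-30, whose product drives lysosomal and autophagy genes, passed in no comparison. Of the 9 intestine markers, 1 passed, the peptide transporter gene pept-1, with 186 ± 34.5 CPM in granulin 3 and 85.4 ± 6.47 CPM in granulin 2 (1.11 ± 0.26; limma, adjusted p = 0.0124), beside 1.72% of all tested genes.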

How the data were processed

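The authors deposited 1 table per library of log2 CPM (depth-scaled counts) for 46778 genes. Per the submitters' processing notes, STAR, HTSeq, edgeR and limma and the build ce11 were used. The sources used here give no versions, settings, annotation or strand setting for these. A shared floor of -5.05 stands for 0 reads. Above it, linear values were whole multiples of a step per library, and reads were recovered from these steps (tolerance 0.01 reads; 7 values not whole). The number of per-sample columns left unused was 0.

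Reads were scaled by trimmed means of M values (30% of ratios and 5% of levels trimmed). Genes with at least 0.177 CPM in 4 libraries and 15 reads in all were tested with limma 3.58.1 (trend, robust; R 4.3.3) on log2 CPM at a prior count of 2. One mean per strain was fitted over all 20 libraries, after a check on simulated data. As the deposited unit is log2, count tests were not run. Names and coordinates came from Ensembl release 115. Replicates are numbered in accession order. Groups follow the strain label, since the group label names AWK33 for all 3 granulin strains.

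Members and gene lists were chosen with earlier results of these data known. The text names all members, pgrn-1, the 2 genes of lowest p per direction among those passing in each list and comparison, and the 3 genes closest in r to each of the 4 most abundant members. Of marker lists, names were kept to genes beside which a member is described. The sperm genes spe-19 and spe-11 have the 2 lowest p of their list in granulin 2 against the null. In granulin 2 against granulin 1, for which their values are given, spe-11 is not among the 2 lowest. Further sperm genes were named for the libraries in which they had no reads or had reads throughout. The genes named as passing in no comparison were picked by role. Alternatives covered scaling, prior, filter, weights, strains fitted, a length covariate, a replicate block and libraries left out.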

Additional observations from a re-analysis of the deposited data

Results flagged for a closer look

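In 2 of 50 sets of 4 libraries (10 members in 5 strains) 1 library stood far from the other 3. Chance alone gives about 1 in 20. Both were wild type replicate 4. For asp-1 it had 7843 CPM, against 1842 to 2093 CPM in the other wild type libraries, and the gap took 0.912 of the whole range. For asp-3 it had 2470 CPM, against 597 to 651 CPM, and the gap took 0.939 of the range. That library also had 44.8% ribosomal RNA reads and the lowest scaling factor, and the part of these in the 2 values was not tested.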

How the results depend on the processing

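Of 1940 alternative values of the 100 fold changes, 1717 kept their direction and their side of the threshold, 186 changed sign with no call on either side, 34 newly passed, 3 no longer passed and 0 passed in the opposite direction. Counts of members that passed moved as follows, with 0 as the reported count unless stated. Each count is followed by the share of all tested genes that passed in the same fit. With weights per library (a fit stopped before convergence), 3 members passed in the null against wild type (14.1%). In granulin 1, 2 and 3 against the null, 1 (4.24%), 2 (37.5%) and 3 (41.2%) passed with these weights. So did 1 in granulin 3 against wild type (20.8%) and 1 in granulin 3 against granulin 1 (16.9%). With the length slope as a covariate, 2 (34.1%) and 1 (23.0%) passed in granulin 2 and 3 against the null. In granulin 2 and 3 against wild type 1 (31.4%) and 1 (16.5%) passed, and 1 in granulin 3 against granulin 1 (12.8%). Without the 5 libraries of lowest length slope, 1 passed in granulin 2 (27.1%) and in granulin 3 (16.7%) against the null. That fit dropped granulin 1 replicate 3, granulin 2 replicate 2, granulin 3 replicates 2 and 3 and null replicate 1. In that fit 1 passed in granulin 3 against wild type (12.5%) and 1 in granulin 3 against granulin 1 (8.77%). Without libraries with over 20% ribosomal RNA reads, 1 passed in granulin 3 against the null (18.4%). That fit dropped wild type replicate 4, granulin 1 replicate 3 and granulin 2 replicates 3 and 4, and no granulin 3 or null library. In it 1 passed in granulin 2 (17.4%) and in granulin 3 (13.2%) against wild type. In granulin 2 against granulin 1 (reported count 1) 0 passed (11.8%). With only the pair of strains fitted, 2 (24.9%) and 1 (14.5%) passed in granulin 2 and 3 against the null. In granulin 2 against granulin 1, 0 (12.2%) passed so and 0 (12.9%) on the deposited scale. With no filter 1 passed in granulin 2 against the null (16.8%), and with median-of-ratios scaling 1 in granulin 3 against the null (12.7%). Over all genes the shares that passed thus moved as well. Against wild type the reported shares were 0.197% in the null, 18.3% in granulin 2 and 11.2% in granulin 3. Against the null they were 0.47%, 21.6% and 12.7% in granulin 1, 2 and 3. They were 18.9% in granulin 2 and 5.58% in granulin 3 against granulin 1. The members concerned were asp-4, asp-8, asp-12 and asp-14. For any difference among the 5 strains (reported count 1) the count was 0 on the deposited scale, with no filter, with protein-coding genes only and with voom weights, 4 with weights per library, 2 with the length slope and 2 without the 5 libraries.

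Leaving out 1 library gave 0 to 1 in granulin 2 and in granulin 3 against the null, in granulin 3 against granulin 1 and for any difference. It gave 1 to 1 in granulin 2 against granulin 1 and 0 to 0 elsewhere. Against the null, asp-8 passed in granulin 2 without granulin 2 replicate 1 (17.5% of all tested genes) and in granulin 3 without granulin 3 replicate 3 (11.3%). In granulin 3 against granulin 1 it passed without granulin 1 replicate 1 (6.1%) or granulin 3 replicate 3 (5.27%). The cause was not tested. The deposited scale shifted the median log2 difference of all genes by -0.28 to 0.80. Same-letter libraries correlated at -0.59 to 0.28 in granulin 2 and the null and at -0.28 to 0.58 in granulin 1 and wild type, -0.22 to 0.44 in granulin 3 and wild type and -0.09 to 0.50 in granulin 3 and granulin 1. In none of the 4 pairs of strains was every correlation over 0.1, so libraries were not treated as paired. The fits without 1 library for cpr-6, cpr-8, cpr-9, tra-3, pqm-1 and pept-1, and the member medians without wild type replicate 4, were chosen after seeing the data. With the letter as a replicate block, 1 member passed in granulin 3 against wild type (asp-14, -1.34, adjusted p = 0.0277 by limma), beside 10.8% of all tested genes. No other call of a member changed, while calls over all genes were 3229 in granulin 2 against the null (3407 without the block).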

Other observations

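The ratio of asp-4 to asp-3, picked after the values were seen, was 0.233, 0.4, 0.69 and 0.487 in granulin 1, 0.242, 1.02, 0.394 and 0.0915 in granulin 2 and 0.197, 0.562, 0.676 and 0.296 in granulin 3. It was 0.799, 0.512, 0.516 and 0.553 in the null and 0.215, 0.262, 0.346 and 0.194 in wild type. All null libraries were above all wild type libraries, and the granulin strains spread over both ranges. No share over other pairs of genes was computed. The null and wild type also differ in sample-name letters, so the ratio cannot be told apart from a batch if the letters mark one. In wild type replicate 4 asp-4 itself, at 479 CPM, lay within the null range, and asp-3 had 2470 CPM, far above the other wild type libraries. The ratio is of CPM, not per length, and was not tested.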
